A study of Homo sapiens with 12 samples.

Results

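The 7 genes of the INK4 and CIP/KIP families of cyclin-dependent kinase (CDK) inhibitors were followed across proliferating and irradiated human fibroblasts. They were taken by symbol from the deposited table of gene values, which held all 7 of them among 16383 genes. The cells were IMR90, an established line of human lung fibroblasts, labelled as wild type in all groups. There were 4 groups of 3 libraries of poly(A) RNA. Proliferating cells were untreated, and the other groups were made senescent by 20 Gy of ionizing radiation over 10 min. Irradiated cells received the vehicle DMSO, the CDK4 and CDK6 inhibitor palbociclib or the JAK1 and JAK2 kinase inhibitor ruxolitinib. Each inhibitor was given at 2 µM on days 4, 6, 8 and 10, and irradiated cells were collected on day 11. The days on which DMSO was given and the time at which proliferating cells were collected are not given in the sources used here. All libraries came from 1 line, and the labels do not say whether replicates were separate cultures, so p-values measure the spread between these libraries, which may be technical.

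Progression from G1 into S phase needs cyclin D with CDK4 or CDK6, and then cyclin E or A with CDK2, to phosphorylate the retinoblastoma protein and release E2F transcription factors. The INK4 proteins p15 (CDKN2B), p16 (CDKN2A), p18 (CDKN2C) and p19 (CDKN2D) bind CDK4 and CDK6 and keep them from cyclin D. The CIP/KIP proteins p21 (CDKN1A), p27 (CDKN1B) and p57 (CDKN1C) bind cyclin-CDK complexes more broadly and inhibit CDK2. In senescent fibroblasts p21, induced by p53 after DNA damage, and p16 are the members classically tied to the arrest, and palbociclib acts on the kinases that INK4 proteins bind.

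Positions are those of GENCODE v44 on GRCh38, the build named in the submitters' processing notes. CDKN1A lies on chr6:36676460-36687337 (plus strand), CDKN1B on chr12:12685498-12722369 (plus) and CDKN1C on chr11:2883213-2885775 (minus). CDKN2A (chr9:21967752-21995301, minus) and CDKN2B (chr9:22002903-22009305, minus) are neighbours, and the long noncoding RNA CDKN2B-AS1 runs over parts of both on the opposite strand. CDKN2C lies on chr1:50960745-50974634 (plus) and CDKN2D on chr19:10566460-10569059 (minus). CDKN2A encodes p16 and, from another first exon, the p53 regulator ARF, and gene values do not separate these transcripts. Of the 50-base words in a gene's transcripts, 12.9% for CDKN2A, 19.2% for CDKN2C and 3.27% for CDKN1A also occur, in either orientation, in transcripts of another gene. In each case the gene that shared most was a noncoding RNA on the opposite strand. CDKN2A and CDKN2B shared 0.755% and 0.776% of their words with each other. Whether counting used strand is not given in the sources used here, so values of these genes may hold reads of their antisense partners.

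RefSeq promoter windows (GRCh38.p14) were found for 6 of the 7 genes, 9 windows in all. The 250 bases before the start site are shown for 4 of them. CDKN1A and CDKN2C moved furthest from the proliferating level, and CDKN2A and CDKN2B lie side by side but moved differently. Sequences run 5′ to 3′ on the gene's strand, and capitals mark GC boxes (GGGCGG on either strand, overlapping matches included), the sites that SP1-type factors bind. Which start site these cells used was not measured.
CDKN1A (chr6:36678464-36678713, plus strand): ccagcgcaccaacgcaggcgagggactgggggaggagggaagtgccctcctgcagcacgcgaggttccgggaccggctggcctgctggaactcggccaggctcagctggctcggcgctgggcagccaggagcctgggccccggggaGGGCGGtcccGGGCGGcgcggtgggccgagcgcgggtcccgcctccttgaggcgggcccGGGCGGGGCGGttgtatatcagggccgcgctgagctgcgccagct
CDKN2C, the second of 3 listed starts (chr1:50968456-50968705, plus strand): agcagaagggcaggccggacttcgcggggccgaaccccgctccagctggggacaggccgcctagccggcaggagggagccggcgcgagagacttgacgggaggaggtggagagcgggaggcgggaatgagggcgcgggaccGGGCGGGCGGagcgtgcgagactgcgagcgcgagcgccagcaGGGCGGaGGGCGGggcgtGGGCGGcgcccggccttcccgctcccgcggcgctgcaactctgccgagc
CDKN2A, the start of the p16 transcript (chr9:21974858-21975107, minus strand): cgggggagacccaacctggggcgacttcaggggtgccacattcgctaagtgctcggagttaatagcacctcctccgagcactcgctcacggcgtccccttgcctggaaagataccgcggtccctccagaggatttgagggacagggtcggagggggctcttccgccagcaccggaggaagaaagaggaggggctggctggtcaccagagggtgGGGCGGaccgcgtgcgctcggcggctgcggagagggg
CDKN2B (chr9:22009306-22009555, minus strand): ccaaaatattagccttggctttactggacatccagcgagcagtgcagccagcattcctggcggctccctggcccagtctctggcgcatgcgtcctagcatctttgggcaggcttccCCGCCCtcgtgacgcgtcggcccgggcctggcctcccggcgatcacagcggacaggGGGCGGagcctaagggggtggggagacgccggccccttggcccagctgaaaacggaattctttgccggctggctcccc
The CDKN1A window held 4 GC boxes and this CDKN2C window 5, against 1 for CDKN2A and 2 for CDKN2B. The CDKN2C windows not shown held 0 and 1, and the CDKN2A window not shown held 0. The count for CDKN2C thus rests on the start chosen, and a link between GC boxes and expression was not tested. A GC box was present in 7 of the 9 windows and in 42.6% of all 35116 promoter windows of the same length. The E2F motifs TTTCCCGC, TTTGGCGC, TTTCGCGC and TTTGCCGC, on either strand, were in 0 of the 9 windows and 2.79% of all windows. A full p53 element was in 0 of the 9 and 0.0256% of all, which says only that these letters are not in these 250 bases.

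Over the listed genes the libraries held 14106799 to 21762412 reads, recovered as whole numbers from the deposited values. Libraries are named by the numbers in the column headers, A116 to A127. Replicate pairs that held A126 (proliferating) or A120 (palbociclib) differed more than the others, with a chi-square per gene of 11.9 to 25.1 against 1.98 to 6.43. Other scalings shift the median gene by over 0.1 on the log2 scale. Equal totals shift it by 0.23 and 0.20 when DMSO or ruxolitinib is set against proliferating cells and by -0.23 and -0.20 when palbociclib is set against DMSO or ruxolitinib. Equal upper quartiles shift it by 0.29, 0.21 and 0.33 when DMSO, palbociclib or ruxolitinib is set against proliferating cells and by -0.13 for palbociclib against ruxolitinib. Quantile normalization shifts the first 3 of these by 0.14, 0.12 and 0.16. Higher genes were 45.7% of all calls in DMSO against proliferating cells, and were 64.0% with equal totals and 68.2% with equal upper quartiles. For palbociclib against DMSO these shares were 53.9%, 15.4% and 37.5%, for ruxolitinib against DMSO 24.4%, 15.6% and 44.2%, and for palbociclib against ruxolitinib 56.4%, 15.7% and 28.1%. Against proliferating cells they were 47.7%, 48.0% and 62.9% for palbociclib and 45.2%, 61.7% and 70.5% for ruxolitinib. All changes given here use the deposited scaling. The 9 fibroblast markers were all present, FAP lowest at 1018 or more normalized counts. They summed to 815435 to 849151 normalized counts in proliferating libraries, 404750 to 415448 in DMSO libraries, 648000 to 680950 in palbociclib libraries and 511866 to 515875 in ruxolitinib libraries. The 12 epithelial, endothelial and leukocyte markers were each at 35.5 or less, and KRT5 and MS4A1 were below 1 in every library. In the same order, the leukocyte markers summed to 1.11 to 7.26, 28.4 to 40.6, 12.44 to 21.03 and 15.3 to 24.7, and the endothelial ones to 5.54 to 9.34, 29.6 to 50.9, 21.03 to 35.03 and 31.6 to 56.7. Summed epithelial markers were 9.52 to 35.5, 33.5 to 39.6, 31.8 to 45.4 and 24.3 to 29.3. The part of these shifts in the results below was not tested. MKI67, a marker of cycling cells, averaged 13062 normalized counts in proliferating libraries, 1011 in DMSO, 82.5 in palbociclib and 700.2 in ruxolitinib libraries.

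Senescent DMSO cells were first set against proliferating cells. These groups differ in irradiation, in DMSO and possibly in time in culture, and the effects of these cannot be told apart. Below, "after irradiation" is a short name for this comparison. CDKN1A and CDKN2B rose, CDKN1B, CDKN2C and CDKN2D fell, CDKN2A was not called, and CDKN1C was too low to test. Of the 6 genes tested, 2 were called higher and 3 lower at an adjusted p under 0.05 (limma, Benjamini-Hochberg over 11242 genes). Of all genes tested, 33.0% were called higher and 39.3% lower, so the share of inhibitor genes that moved is near the background. Their median log2 fold change was -0.32, beside -0.05 for all genes. In bulk RNA a change in the make-up of the culture and a change in RNA per cell cannot be told apart.

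CDKN1A, the main p53-induced member, rose furthest. It stood at 3165, 3523 and 3479 normalized counts in proliferating libraries and at 28501, 29824 and 29125 with DMSO. The ranges lie far apart. The rise was 8.61-fold (log2 fold change 3.11, SE 0.06, limma adjusted p 4.55e-15).

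CDKN1B moved the other way. Its values were 966, 1030 and 1021 normalized counts in proliferating cells and 417, 436 and 408 with DMSO, again without overlap. This was a 2.39-fold fall (log2 fold change -1.26, SE 0.07, limma adjusted p 4.21e-10). The p27 protein is regulated largely by its turnover, which RNA does not show.

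CDKN1C, an imprinted gene of chromosome 11, was close to absent. Proliferating libraries held 4, 10 and 1 reads of it, DMSO libraries 5, 4 and 1, palbociclib libraries 1, 0 and 2, and ruxolitinib libraries 3, 5 and 5. The palbociclib libraries lay below the ruxolitinib ones and the groups otherwise overlapped; with so few reads no fold is given. When no filter on low values was used, its adjusted p lay between 0.0543 and 0.961 in the 6 comparisons.

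Within the INK4 family, CDKN2C fell furthest. It went from 951, 1007 and 927 normalized counts to 68.3, 110 and 105. No DMSO library came near the proliferating range. The fall was 10.3-fold (log2 fold change -3.36, SE 0.16, limma adjusted p 4.10e-11). CDKN2D, which encodes the closely related p19, fell less, from 241, 325 and 231 to 133, 170 and 180 (log2 fold change -0.71, SE 0.16, limma adjusted p 0.000683). Its highest proliferating value was that of A126. Without A126 its log2 fold change was -0.56 (adjusted p 0.00377).

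CDKN2B rose from 190, 150 and 197 normalized counts to 343, 366 and 339, with no overlap (log2 fold change 0.97, SE 0.10, limma adjusted p 2.58e-07). Its neighbour CDKN2A read 177, 180 and 143 in proliferating cells and 164, 170 and 188 with DMSO, so that the groups overlap. The log2 fold change of CDKN2A was 0.07 (95% interval -0.18 to 0.32, limma adjusted p 0.595). That interval leaves room for a change of up to 0.32 on the log2 scale. The CDKN2A call rested on the scaling, with log2 fold changes of 0.30 (adjusted p 0.0346) with equal totals and 0.36 (0.0135) with equal upper quartiles. Its sign turned without A127 (-0.036). Over all alternatives its adjusted p ranged from 0.0135 to 0.931.

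**Figure D1:**
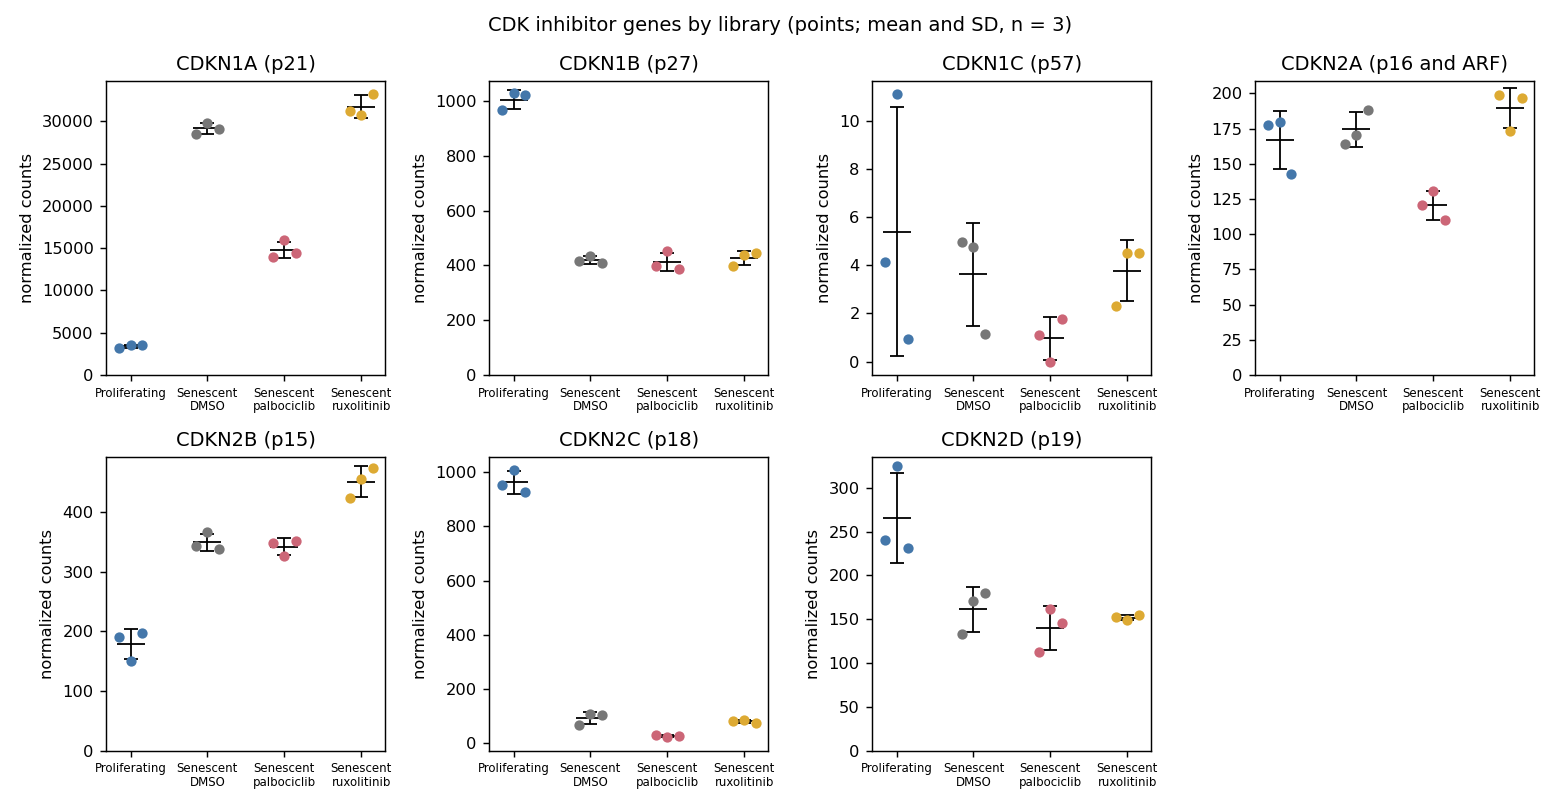
Normalized counts (linear axes, a separate scale for each gene) of the 7 CDK inhibitor genes, with 1 point per library and the mean and SD of the 3 libraries of each group. CDKN1A was highest in DMSO and ruxolitinib cells, CDKN1B, CDKN2C and CDKN2D were highest in proliferating cells, and CDKN2A was lowest with palbociclib.

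Palbociclib was next set against DMSO in senescent cells. CDKN1A, CDKN2A and CDKN2C fell, and CDKN1B, CDKN2B and CDKN2D were not called. Of the 6 tested genes, 0 were called higher and 3 lower (limma), where 26.0% of all genes were called higher and 22.3% lower. At an unadjusted p under 0.05, and by edgeR and DESeq2, 0 were higher as well. With equal totals all 6 were called lower, where the number of all genes called lower went from 2505 to 5176. CDKN1A, CDKN2A and CDKN2C were called lower under each of the 25 alternatives. The median log2 fold change over the 6 genes was -0.37, beside 0.02 for all genes.

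CDKN1A fell to 14000, 15903 and 14433 normalized counts with palbociclib, which is 1.98-fold below DMSO (log2 fold change -0.98, SE 0.06, limma adjusted p 3.37e-09). The palbociclib libraries lay between the proliferating and the DMSO libraries, and remained 4.36-fold above proliferating cells (adjusted p 3.21e-14).

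CDKN2A fell to 121, 130 and 110 normalized counts. All 3 palbociclib libraries lay below all other 9 libraries. The log2 fold change against DMSO was -0.53 (SE 0.12, limma adjusted p 0.00151) and that against proliferating cells was -0.46 (adjusted p 0.00207). The second of these was not called with equal upper quartiles (-0.26, adjusted p 0.0645) or after quantile normalization (-0.23, adjusted p 0.0878).

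CDKN2C fell further, to 29.9, 23.0 and 28.4 normalized counts, from 21 to 32 reads per library. The step from DMSO was -1.74 on the log2 scale (SE 0.16, limma adjusted p 5.01e-07). Together the steps left it 34.4-fold below proliferating cells (log2 fold change -5.11, SE 0.16, adjusted p 1.90e-13). MKI67 moved in the same order across the 4 groups, and its part in this result was not tested.

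For the other 3 tested genes palbociclib and DMSO libraries overlapped. CDKN1B stood at 398, 451 and 387 normalized counts with palbociclib, a log2 difference of -0.03 (95% interval -0.19 to 0.13). CDKN2B stood at 349, 326 and 352, a log2 difference of -0.03 (95% interval -0.24 to 0.18). CDKN2D stood at 113, 162 and 146, a log2 difference of -0.20 (95% interval -0.53 to 0.13). With equal totals these 3 genes were called lower, at -0.26, -0.26 and -0.43, and after quantile normalization their signs turned, to 0.008, 0.018 and 0.008.

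Ruxolitinib was set against DMSO in the same way. CDKN2B was the 1 gene of 6 called, and it was higher, where 1.10% of all genes were called higher and 3.42% lower (limma). None was lower, also at an unadjusted p under 0.05 and by edgeR and DESeq2. CDKN1A, CDKN1B, CDKN2A, CDKN2C and CDKN2D were not called.

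CDKN2B stood at 423, 456 and 474 normalized counts with ruxolitinib, above every library of the other groups. The log2 fold change was 0.37 (SE 0.10), or 1.29-fold, with a limma adjusted p of 0.0454, close to the threshold. The size changed little when a library was left out (0.33 to 0.41), but the call was lost without A116 (adjusted p 0.152), A117 (0.0905), A118 (0.164), A121 (0.0650), A122 (0.0833), A123 (0.154), A124 (0.201) or A125 (0.0526). It was also lost with no filter (0.0669), without a variance trend (0.0731) and at the stricter threshold of 0.01. A121 and A125 belong to neither group compared, and without either of them the log2 fold change stayed at 0.37. The limma adjusted p was lower without A126 (0.00811), without both A120 and A126 (0.001785) and when only the 2 groups were fitted (0.00043). Of 25 alternatives, the call held in 14 and was lost in 11. On the recovered reads edgeR gave an adjusted p of 0.0195 and DESeq2 0.00584.

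CDKN1A stood at 31221, 30752 and 33259 normalized counts with ruxolitinib, all above the DMSO libraries, but its log2 fold change of 0.12 (95% interval -0.002 to 0.25) was not called (limma adjusted p 0.328). It was called when only the 2 groups were fitted (adjusted p 0.00938). CDKN2A stood at 199, 173 and 197, a log2 difference of 0.12 (95% interval -0.13 to 0.37). CDKN1B stood at 399, 438 and 446 (0.02, 95% interval -0.13 to 0.18), CDKN2C at 84.1, 85.5 and 74.0 (-0.19, -0.53 to 0.16) and CDKN2D at 152, 149 and 154 (-0.07, -0.40 to 0.26).

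The inhibitors were then compared directly, at the same dose and days. CDKN1A, CDKN2A, CDKN2B and CDKN2C were lower with palbociclib than with ruxolitinib, so 0 of the 6 tested genes were called higher and 4 lower, where 22.8% of all genes were higher and 17.6% lower. The count of 0 was the same at an unadjusted p under 0.05 and by edgeR and DESeq2. The log2 difference was -1.10 for CDKN1A (SE 0.06, limma adjusted p 1.57e-09) and -1.55 for CDKN2C (SE 0.16, 2.34e-06). It was -0.65 for CDKN2A (SE 0.12, 0.000398) and -0.40 for CDKN2B (SE 0.10, 0.00469). These 4 calls held under each of the 25 alternatives. CDKN1B (-0.05, 95% interval -0.21 to 0.10) and CDKN2D (-0.13, -0.46 to 0.20) were not called, although CDKN1B was called lower with equal totals (-0.26, adjusted p 0.0104).

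**Figure D2:**
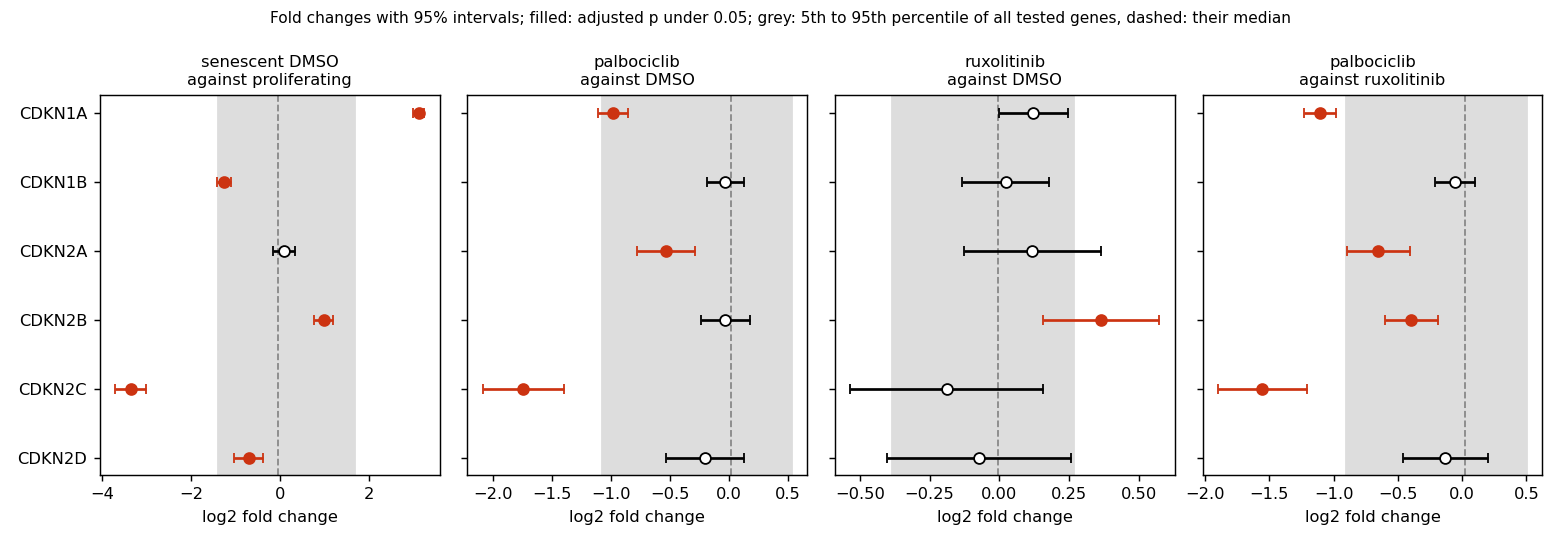
Log2 fold changes of the 6 tested genes (points, with 95% intervals) in 4 comparisons, each panel with its own axis, filled where the adjusted p was under 0.05. The grey band is the 5th to 95th percentile of all tested genes. CDKN1A and CDKN2C lie outside it in senescent DMSO against proliferating cells and in palbociclib against ruxolitinib. So do CDKN2C in palbociclib against DMSO and CDKN2B in ruxolitinib against DMSO.

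Ordered by group, each gene had a pattern of its own. CDKN1A was lowest in proliferating cells, then palbociclib, then DMSO and ruxolitinib, which were not called apart. CDKN2B was lowest in proliferating cells and highest with ruxolitinib, and DMSO and palbociclib did not differ beyond their spread. CDKN2C was lowest with palbociclib, then ruxolitinib and DMSO, not called apart, and highest in proliferating cells. CDKN2A was lowest with palbociclib, and its other 3 groups were not called apart. CDKN1B and CDKN2D were highest in proliferating cells, with no called difference among irradiated groups. Against proliferating cells, palbociclib libraries had 2 of the 6 genes higher and 4 lower, where 35.2% of all genes were higher and 38.6% lower. Ruxolitinib libraries had 2 higher and 3 lower, where 32.6% and 39.5% of all genes were. In both, the higher genes were CDKN1A and CDKN2B. CDKN2B was 1.92-fold above proliferating cells with palbociclib (adjusted p 3.31e-07) and 2.53-fold with ruxolitinib (5.96e-09). CDKN2A, not called between ruxolitinib and proliferating cells (0.19, adjusted p 0.154), was called higher with equal totals (0.39, 0.00796) or equal upper quartiles (0.52, 0.001001), after quantile normalization (0.27, 0.0431) and by edgeR (0.26, 0.0499). The comparisons share their control libraries and are not independent of each other.

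To compare levels between genes, values were divided by the length of the canonical GENCODE transcript. Per kilobase, CDKN1A was the highest of the 7 in every group, at 1601 ± 92.3 normalized counts per kilobase in proliferating cells (SD, n = 3) and 13770 ± 313 with DMSO. In proliferating cells CDKN2C came second at 966.5 ± 41.4, above CDKN1B at 417.1 ± 14.4. With DMSO CDKN2C was at 95.01 ± 23.0, below CDKN2A at 178.3 ± 12.8 and CDKN1B at 174.3 ± 5.83. CDKN1A made up 47.2% ± 1.55 of the summed level per kilobase of the 7 genes in proliferating libraries, and 95.5% ± 0.264, 93.2% ± 0.0797 and 95.7% ± 0.0906 in DMSO, palbociclib and ruxolitinib libraries. Without CDKN1A, the summed level per kilobase of the other 6 genes was 1790 ± 94.7 in proliferating libraries, against 653.4 ± 51.0 in DMSO, 509.0 ± 28.6 in palbociclib and 678.4 ± 13.6 in ruxolitinib libraries. With the union of all exons as the length, the CDKN1A share was 62.0% in proliferating cells and 96.8%, 94.9% and 96.9% in the others. On that length CDKN2C averaged 318.6 normalized counts per kilobase in proliferating cells, second to CDKN1A at 1131, and 31.3 with DMSO. The ranks of the lower genes, CDKN2A and CDKN2B above all, moved with the choice of length.

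**Figure D3:**
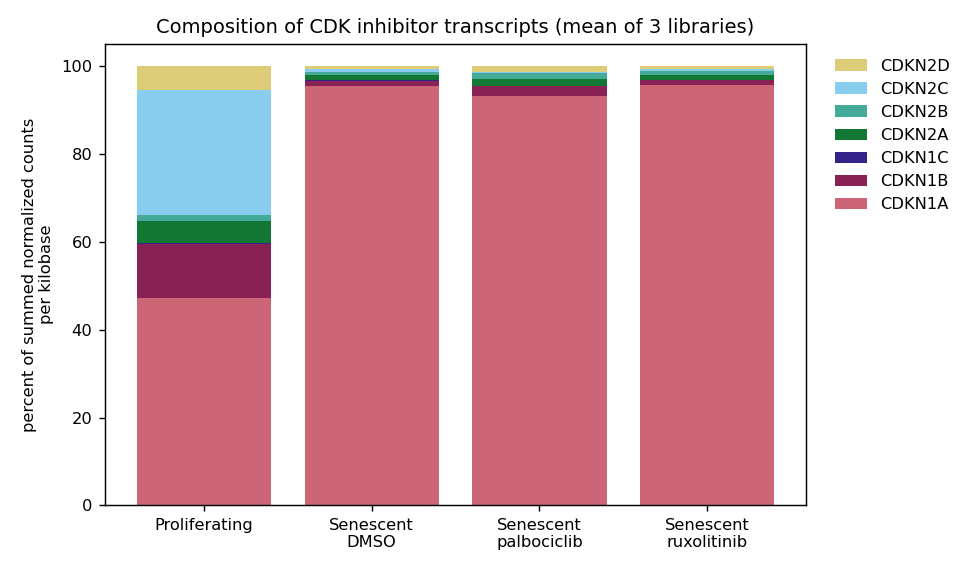
Share of each CDK inhibitor gene in the summed normalized counts per kilobase of canonical transcript (bars, mean of 3 libraries per group, in percent). CDKN1A made up 47.2% in proliferating cells and 93.2% to 95.7% in the irradiated groups, and CDKN2C fell from 28.5% to under 1%. These shares depend on the transcript length used.

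Ratios of 2 genes within a library do not depend on how libraries were scaled, apart from the pseudocount of 1, which matters at low values. The log2 ratio of CDKN2A to CDKN2B was -0.10, 0.26 and -0.46 in proliferating libraries and -1.06, -1.10 and -0.84 with DMSO. It was -1.52, -1.32 and -1.67 with palbociclib and -1.08, -1.39 and -1.26 with ruxolitinib. The neighbours thus changed unequally after irradiation (difference -0.90) and again with palbociclib (-0.50), without overlap in either case. From DMSO to ruxolitinib the difference was -0.25, with overlap. The log2 ratio of CDKN1A to CDKN1B rose from 1.75 ± 0.03 to 6.11 ± 0.03 (SD, n = 3) after irradiation, and was 5.16 ± 0.05 with palbociclib and 6.21 ± 0.08 with ruxolitinib. That of CDKN2C to CDKN2D went from 1.87 ± 0.21 to -0.78 ± 0.16, -2.32 ± 0.44 and -0.90 ± 0.13. Each of these steps from proliferating to DMSO and from DMSO to palbociclib had an exact two-sided permutation p of 0.1, the smallest that 3 against 3 libraries allow (0.178 adjusted over 16 ratio tests), and those from DMSO to ruxolitinib had 0.2, 0.2 and 0.4. Palbociclib minus ruxolitinib, the 3 ratios differed by -0.26, -1.05 and -1.42 in the same order. The exact permutation p was 0.2, 0.1 and 0.1. Only for CDKN2A to CDKN2B did these groups overlap, so the direct test did not separate the inhibitors for that ratio. The ratio of CDKN1C to CDKN1B rests on 0 to 10 reads of CDKN1C per library, and its DMSO and proliferating ranges overlapped (exact p 0.3).

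The genes around the inhibitors were read from 6 lists, none of which holds one of the 7. The first held 15 genes of the machinery the inhibitors act on (cyclins, CDK2, CDK4, CDK6, pocket proteins and activating E2Fs). In senescent DMSO against proliferating cells, 3 rose and 10 fell (limma, median log2 fold change -0.76), or 20.0% and 66.7% of the list, beside 33.0% and 39.3% of all genes tested (median -0.05). CCND2, a D-type cyclin, rose from 105.3 ± 33.0 to 3541 ± 253 normalized counts (SD, n = 3, log2 fold change 5.11). CCNA2, the S-phase cyclin A, fell from 3376 ± 141 to 359.7 ± 10.7 (-3.23). With palbociclib against DMSO, 2 rose and 6 fell (median -0.01), or 13.3% and 40.0%, beside 26.0% and 22.3% of all genes (median 0.02). CDK6, a target of the drug, rose from 5307 ± 149 to 8642 ± 1283 (0.69), and CCNE2, a cyclin E, fell from 157.9 ± 8.74 to 36.7 ± 9.60 (-2.10). The count of 2 became 1 with equal totals or upper quartiles and without A121.

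In the p53 list, 18 of 20 genes rose and 1 fell after irradiation (limma, median 1.23), where 33.0% of all genes rose and 39.3% fell. BTG2, an antiproliferative p53 target, went up to 663.5 ± 31.6 normalized counts, from 54.7 ± 14.7 (log2 fold change 3.61). Palbociclib lowered 16 of the 20 and raised 1 (median -0.54), where 22.3% of all genes were lower and 26.0% higher. BTG2 fell to 241.9 ± 22.01 (-1.45) and ZMAT3, an RNA-binding p53 target, rose from 4145 ± 115 to 5567 ± 296 (0.42). CDKN1A had the same direction as most of this list in both comparisons.

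The Polycomb list holds the complexes that silence the INK4 locus and factors that act on CDKN2A. After irradiation 3 of its 14 tested genes rose and 9 fell (limma, median -0.71), or 21.4% and 64.3%, beside 33.0% and 39.3% of all genes. CBX7, a Polycomb reader, rose from 73.8 ± 7.15 to 160.5 ± 23.8 normalized counts (1.10), and CBX2, another reader, fell from 117.9 ± 5.90 to 12.5 ± 2.80 (-3.16). Palbociclib lowered 7 of the 14 (50%, beside 22.3% of all genes) and raised 0 (beside 26.0%; median -0.24), though 1 was raised without A116, A126 or A127 and 2 after quantile normalization (1 at an unadjusted p under 0.05, 0 by edgeR and DESeq2). EZH2, the H3K27 methyltransferase, fell from 192.2 ± 18.1 to 68.4 ± 7.91 (-1.48). RING1, the last of the 15 listed, was under the minimum mean of 10.

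Of 14 genes of p27 turnover and FOXO factors, a list that also holds CDK1 and CCNB1, 4 rose and 9 fell after irradiation (limma, median -0.65). The share that rose, 28.6%, was near the 33.0% of all genes, and 64.3% fell beside 39.3%. FOXO4, a factor of the family that activates CDKN1B, rose from 65.5 ± 10.8 to 114.6 ± 5.56 normalized counts (0.81), and cyclin B1 (CCNB1) fell from 4372 ± 64.7 to 566.5 ± 32.0 (-2.95). Palbociclib raised 5 and lowered 4 (median 0.07), and 0 and 8 with equal totals, so the balance rests on the scaling. Over all genes, 2927 were higher and 2505 lower with the deposited scaling, and 940 and 5176 with equal totals. The 5 and 4 are 35.7% and 28.6% of the list, near the 26.0% and 22.3% of all genes. The 5 became 3 without A120. SKP2, the receptor that marks p27 for destruction, was higher with palbociclib, at 394.0 ± 23.6 against 308.0 ± 15.6 (0.35), a call lost with equal totals (0.13, adjusted p 0.138). CDK1, the mitotic kinase, fell from 330.1 ± 25.7 to 36.0 ± 2.59 (-3.16).

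Of 12 genes of the TGF-beta arm, which induces CDKN2B, 3 rose and 8 fell after irradiation (limma, median -0.29), or 5 fell under each of 3 other scalings. The 3 and 8 are 25% and 66.7% of the list, beside 33.0% and 39.3% of all genes. Over all genes, 4420 were called lower with the deposited scaling. With equal totals, equal upper quartiles and quantile normalization these were 2970, 2650 and 3861. TGFBR2, a TGF-beta receptor, rose from 3528 ± 338 to 8731 ± 452 normalized counts (1.31), and MYC, a repressor of CDKN2B, fell from 1163 ± 60.7 to 718.5 ± 45.2 (-0.69). Palbociclib raised 5 and lowered 1 (median 0.08), but raised 1 and lowered 5 with equal totals. The first pair is 41.7% and 8.3% of the list, beside 26.0% and 22.3% of all genes. With equal totals 940 of all genes were called higher and 5176 lower. The 5 became 3 without A116, A117 or A121, and the 1 became 2 without A119. TGFB2, a ligand, rose from 733.6 ± 46.0 to 1065 ± 64.3 (0.54), and SMAD7, a feedback inhibitor, fell from 680.6 ± 35.8 to 471.2 ± 7.92 (-0.53).

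Of the 10 genes listed for the imprinted region of CDKN1C, 6 could be tested. After irradiation 3 rose and 0 fell (limma, median 0.13), and 0 fell at an unadjusted p under 0.05 or by edgeR and DESeq2, though 1 fell without A120. Of all genes 33.0% rose and 39.3% fell. Palbociclib raised 1 and lowered 2 (median 0.13), with so few genes near the 26.0% and 22.3% of all genes. CD81, a tetraspanin, was at 7399 ± 595 normalized counts in proliferating cells, 9548 ± 436 with DMSO (0.37) and 12708 ± 1095 with palbociclib (0.41 against DMSO), the latter call lost after quantile normalization (0.09, adjusted p 0.319). IGF2, the imprinted growth factor, fell from 285.8 ± 23.0 to 149.0 ± 47.6 with palbociclib (-0.99).

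Ruxolitinib against DMSO raised 2 and lowered 5 of the 81 tested genes of the lists (limma), or 2.5% and 6.2%, beside 1.10% and 3.42% of all genes. It raised ZMAT3 (0.36, limma adjusted p 0.00504) and SESN1 (0.31, 0.0488) of the p53 list, and lowered CDK1 (-0.69, 0.000169) and CCNB1 (-0.36, 0.0132) of the p27 list. It lowered EZH2 (-0.40, 0.0318) and ETS2 (-0.21, 0.0158) of the Polycomb list and CCNA2 (-0.39, 0.0156) of the first list. Of the first list 0 were called higher, with 2 at an unadjusted p under 0.05 and 1 by edgeR and by DESeq2. CCND2 stood at 5145 ± 267 normalized counts against 3541 ± 253 with DMSO (0.54, limma adjusted p 0.0612), without overlap. Of the p53 list 0 were called lower, with 3 at an unadjusted p under 0.05, 0 by edgeR and 1 by DESeq2. Of the p27 list 0 were called higher, with 1 at an unadjusted p under 0.05 and 0 by edgeR and DESeq2, and of the Polycomb list 0 by each. Of the TGF-beta list 0 were called (limma), with 2 higher and 3 lower at an unadjusted p under 0.05, and 1 higher by edgeR and by DESeq2. Of the CDKN1C region 0 were called, with 2 higher at an unadjusted p under 0.05 and 0 by edgeR and DESeq2, though 2 were higher without A120. Medians ranged from -0.06 (TGF-beta arm) to 0.10 (p53 list). For this comparison SESN1, ETS2, CCNB1 and CCND2 lie outside the rule for naming genes and were named after their values were seen. The CCNA2 call was lost without A116, A117, A122 or A124 (adjusted p 0.0570 to 0.0960) and the EZH2 call without A116, A118, A122, A123, A124 or A125 (0.0517 to 0.163). The p53 count of 2 became 1 without A116, A117, A118, A122, A123, A124 or A125, and 4 without A120. The p27 count of 2 became 1 without A117, A118, A122 or A123. When only the 2 groups were fitted, 7 genes of the p53 list were higher and 4 lower. With A120 and A126 both left out, 6 were higher and 2 lower. The shares of all genes called in these other fits are not given here. The counts from them therefore have no background and are not read as a result about the p53 list.

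**Figure D4:**
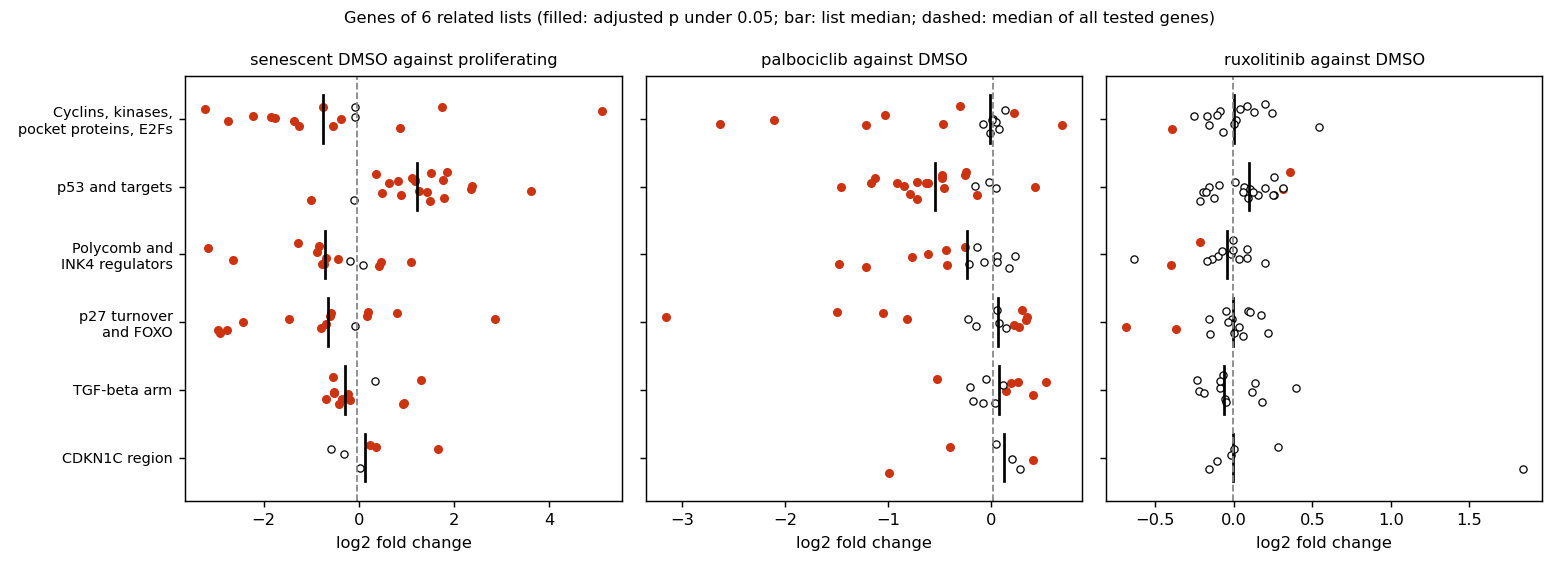
Log2 fold changes of the tested genes of 6 lists (points, filled where the adjusted p was under 0.05, bars at the list median, dashed line at the median of all tested genes) in 3 comparisons with separate axes. The p53 list lies to the right after irradiation (18 of 20 higher) and to the left with palbociclib (16 of 20 lower), while 7 points are filled with ruxolitinib.

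The genes whose pattern was most like that of each inhibitor gene were taken by Pearson correlation of log2 values over the 12 libraries. Candidates had a mean of at least 100 normalized counts and a spread within a factor of 1.5 of the member's. These correlations are descriptions over libraries that fall into 4 groups and share their scaling. CDKN1A was most like DNAI3 (r = 0.997), INKA2 (0.992) and BTG2 (0.991). CDKN2C was most like HELLS (0.998), a chromatin remodeller of replicating cells, PRIM1 (0.997), a DNA primase subunit, and SHCBP1 (0.995). HELLS averaged 727.8 normalized counts in proliferating libraries and 144.9, 62.4 and 128.0 in DMSO, palbociclib and ruxolitinib libraries, the same order as CDKN2C. Among the genes most like CDKN1B were INSIG1 and PPP1CC (each 0.996). CDKN2B was most like COL4A5 (0.981), a basement membrane collagen, LGR4 (0.980) and SATB1 (0.976). CDKN2A had the weakest matches, SERPINF1 (0.919), TMEM132A (0.919) and PLAU (0.912), the urokinase gene, which like CDKN2A was lowest with palbociclib. CDKN2A also varied least over the libraries, with a log2 SD of 0.28 against 0.42 to 1.95 for the other members compared. The part of this in its lower correlations was not tested. CDKN2D was most like DLEU1 (0.959), PIGC (0.958) and ATRIP (0.957).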

How the data were processed

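RNA was measured by poly(A) sequencing in 12 IMR90 libraries. The deposited table holds the authors' normalized counts, a signal that is never negative, and it lists 16383 genes in order of Entrez number, up to 140467. The submitters' processing notes name Trimmomatic 0.38.1, HISAT2 2.2.1, featureCounts 2.0.3 and DESeq2 2.11.40.8, and the build hg38. The annotation and the strand setting are not given in the sources used here. All 160380 deposited values above 0 were whole multiples (100%, tolerance 0.01) of what 1 read was worth in their library, so reads were recovered. In A116 a read was worth 0.990, too near 1 to show this from that column alone. The table ends at that Entrez number, so totals are those of the listed genes.

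The 7 members and the 6 gene lists were chosen with earlier results of these data known, and the members' counts are descriptions for that reason. Columns name a group and a library but no replicate number. Each gene was tested on log2(normalized count + 1) by limma 3.58.1 (R 4.3.3), with 4 group means over 12 libraries and a variance trend, on 11242 genes with a mean of at least 10, with Benjamini-Hochberg adjustment over all of them. Fold changes are on the log2(value + 1) scale, which understates changes of low genes. The limma functions were tested on simulated data with known fold changes.

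Named genes are the 7 members, the called gene with the largest rise and the largest fall per list in 3 comparisons (where the higher group averaged 100 or more), and the 3 genes most correlated with each member of mean at least 50. Some genes that this rule names are not reported here. Ratios within libraries were tested by exact permutation. Alternatives were pseudocounts of 0.1 and 5, a minimum mean of 50 or none, 3 other scalings (upper quartile over values above 0), no variance trend, a fit of only the 2 groups, an adjusted p under 0.01, edgeR 4.0.16 and DESeq2 1.42.0 on recovered reads, and each library left out. Leaving out A120 and A126 together, and the union of exons as gene length, were added after the data had been seen. Promoters are RefSeq windows, and transcript lengths, shared words and positions are from GENCODE v44.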

Additional observations from a re-analysis of the deposited data

Results flagged for a closer look

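For 3 of the 6 tested genes the estimated effects of the inhibitors against DMSO had opposite signs and differed in the direct limma test. In that test 22.8% of all genes were called higher and 17.6% lower. The share of all genes that met both conditions was not computed, so the count of 3 has no background here. The adjusted p-values below are those of the direct test that picked these genes, so they are not separate support. CDKN1A was -1.10 on the log2 scale with palbociclib minus ruxolitinib (14779 ± 998 against 31744 ± 1333 normalized counts, SD, n = 3, adjusted p 1.57e-09), without overlap of the unpaired libraries. CDKN2A was -0.65 (120.3 ± 10.1 against 189.6 ± 14.5, adjusted p 0.000398), also without overlap. CDKN2B was -0.40 (342.2 ± 13.9 against 450.7 ± 25.8, adjusted p 0.00469), without overlap. Of the effects against DMSO, those of palbociclib on CDKN1A and CDKN2A and that of ruxolitinib on CDKN2B were called, and the sign of the palbociclib effect on CDKN2B turned under quantile normalization. Both effects share the DMSO libraries, while the direct test does not use them as a control.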

How the results depend on the processing

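No paired analysis was possible because the columns carry no replicate number, so the replicate block was not run. With equal totals the number of inhibitor genes called lower with palbociclib against DMSO went from 3 to 6 (2505 to 5176 over all genes). The number called higher with ruxolitinib went from 1 to 0 with no filter, without a variance trend and at an adjusted p under 0.01, to 2 in the fit of 2 groups, and ranged from 0 to 1 as libraries were left out. Every other count of called inhibitor genes stayed within 1.5 times its value under these alternatives, A120 and A126 both left out included. With a pseudocount of 0.1 the log2 ratio of CDKN1C to CDKN1B differed by -2.330 between palbociclib and DMSO (-1.19 with 1) and by -2.554 between palbociclib and ruxolitinib (-1.31), on 0 to 5 reads of CDKN1C. Signs turned only for differences that were not called. These were CDKN2A after irradiation (-0.036 without A127 to 0.129 without A126), CDKN1B with palbociclib (0.008 after quantile normalization, -0.096 to 0.013 without 1 library, highest without A121) and CDKN2B with palbociclib (0.018 after quantile normalization, -0.052 to 0.004 without 1 library, highest without A117 or A120, and 0.004 without both A120 and A126). They were also CDKN2D with palbociclib (0.008 after quantile normalization), CDKN1B with ruxolitinib (-0.002 with equal totals, -0.008 without A124 to 0.072 without A122), CDKN2D with ruxolitinib (-0.206 without A116 to 0.015 without A118) and CDKN2D between inhibitors (0.027 after quantile normalization, -0.243 without A120 to 0.016 without A119). The cause was not tested. Depth limits CDKN1C (0 to 10 reads per library) and CDKN2C with palbociclib (21 to 32 reads).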
